A study of Mus musculus with 91 samples.

Results

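CD11b+ GMP-P cells, a progenitor fraction of mouse bone marrow, were divided by their transcript level of Elane, which encodes neutrophil elastase, a protease of the primary granules. Values were log2(TPM + 1), where TPM is a transcript abundance corrected for gene length and scaled to a fixed total in each cell. Of 45 CD11b+ GMP-P cells, 16 had an Elane value below 10 and form side A, and 29 had a value of 10 or more and form side B. The study held 91 cells in all, and the other 46 were labelled GMP, granulocyte-monocyte progenitors, and served as a reference. The cell names of each population carry a number of their own, whose meaning is not given. Differences between GMP and CD11b+ GMP-P cells cannot be told apart from what that number marks. The cells carried the genotype Gfi1-R412X/- Irf8+/- on the C57BL/6 strain. R412X is a variant allele of Gfi1, a transcriptional repressor needed for neutrophil formation. The other Gfi1 allele is written as a minus sign, and 1 allele of Irf8, a transcription factor of monocyte formation, is intact. Marrow cells lacked lineage markers and Sca-1, carried CD117 and CD34 and stained high for CD16/32. They were captured singly on a Fluidigm C1 chip. All groups share this genotype, and wild-type cells were not analysed here. No animal was named for any cell and each cell is 1 sample, so no p-value was computed, and each SD below is the spread over cells.

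Neutrophil precursors build their granules in order. Promyelocytes make the primary granule proteins, among them elastase, myeloperoxidase and proteinase 3. Later precursors stop this and make the secondary granule proteins lactoferrin, cathelicidin and neutrophilic granule protein, encoded by Ltf, Camp and Ngp, and then the gelatinase granule proteins. The switch is known to need C/EBP epsilon, a transcription factor of the C/EBP family, whose members bind a short palindromic DNA motif.

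The 250 bases before the start of 3 secondary granule genes and 2 primary granule genes are shown because they encode the granule proteins by which the cells are described. They come from RefSeq on build GRCm38, not from the mm9 build of the expression values, and lie directly upstream of the first exon of an annotated transcript. They are written 5′ to 3′ on the gene's own strand. The windows are chr9:111019042-111019291 on the plus strand for Ltf, chr9:109849457-109849706 on the minus strand for Camp and chr9:110419558-110419807 on the plus strand for Ngp. Those of Elane and Mpo are chr10:79886062-79886311 and chr11:87793534-87793783, both on the plus strand. Capitals mark matches, on either strand, to a C/EBP consensus spelled TTNNGNAAT, TTNNGNAAG, TGNNGNAAT or TGNNGNAAG.
Ltf: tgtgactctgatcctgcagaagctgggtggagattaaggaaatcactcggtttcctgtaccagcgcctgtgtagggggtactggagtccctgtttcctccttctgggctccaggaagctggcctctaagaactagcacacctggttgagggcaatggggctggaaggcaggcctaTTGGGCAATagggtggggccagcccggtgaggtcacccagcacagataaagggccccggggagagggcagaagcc
Camp: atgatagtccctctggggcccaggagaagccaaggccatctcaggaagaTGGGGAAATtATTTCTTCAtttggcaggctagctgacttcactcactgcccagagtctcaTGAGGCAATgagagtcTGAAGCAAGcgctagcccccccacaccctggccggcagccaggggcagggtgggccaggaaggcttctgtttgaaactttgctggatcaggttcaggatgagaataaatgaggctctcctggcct
Ngp: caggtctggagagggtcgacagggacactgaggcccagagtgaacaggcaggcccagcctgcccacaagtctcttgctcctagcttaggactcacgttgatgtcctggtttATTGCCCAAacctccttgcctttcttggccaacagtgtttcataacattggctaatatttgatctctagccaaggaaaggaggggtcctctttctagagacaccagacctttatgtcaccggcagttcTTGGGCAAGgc
Elane: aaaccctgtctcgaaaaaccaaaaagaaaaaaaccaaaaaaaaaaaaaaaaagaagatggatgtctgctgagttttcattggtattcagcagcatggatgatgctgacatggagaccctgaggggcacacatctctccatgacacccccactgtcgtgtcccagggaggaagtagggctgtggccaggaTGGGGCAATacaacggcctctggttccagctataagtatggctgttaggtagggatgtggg
Mpo: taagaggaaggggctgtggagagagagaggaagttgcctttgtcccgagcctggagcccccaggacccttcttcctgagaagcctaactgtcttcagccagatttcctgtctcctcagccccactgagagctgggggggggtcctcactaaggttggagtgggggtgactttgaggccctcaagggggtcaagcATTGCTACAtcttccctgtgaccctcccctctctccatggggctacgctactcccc
The Camp window held 4 matches, the Ngp window 2, and those of Ltf, Elane and Mpo 1 each. A match is a run of letters and not a bound site, and 40.1% of all 32851 promoter windows of this length held at least 1.

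The label of side A was checked against its markers before other genes were read. Ltf, Camp and Ngp were high in most cells of side A, and 1 cell went against the label. This cell had an Elane value of 9.74 but Ltf at 1.21, Camp at 2.86 and Ngp at 3.11. Its highest gene was Prg2, the major basic protein of eosinophils, at 16.97 or 12.8% of its TPM. Epx, eosinophil peroxidase, was at 11.13 and Prg3 at 10.995, whereas the other 44 cells averaged 0.032 and 0.014 for these genes. Eosinophil genes thus lead this cell and not late neutrophil genes. It was kept because the rule selects it, and results that rest on it are also given without it.

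The cells just inside the Elane threshold had values of 7.48, 8.79, 9.74 and 9.87, and those just outside had 10.79, 11.09, 12.33 and 12.51. The 12 lowest cells of side A lay between 2.77 and 4.08. Their median was 12.2 TPM, or 0.0636% of the side B mean of 19165 TPM. Camp and Ngp in GMP cells had medians of 0.0186% and 0.0150% of their side A means. Whether such traces are the cells' own transcripts was not tested.

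Secondary granule genes were the highest in side A relative to side B. Ltf, which binds iron, lay between 0.96 and 14.27 in side A with a median of 12.56. In side B it lay between 0.00 and 11.91 with a median of 0.79, so the sides overlapped. The mean was 11.28 ± 4.09 (SD, n = 16) in side A, 3.14 ± 4.17 (SD, n = 29) in side B and 0.77 in GMP cells, a difference of 8.14 between the sides. Without the Prg2-high cell the difference was 8.81. Besides the Prg2-high cell, 1 cell of side A had a low Ltf value, 0.96, while its Camp was 14.98 and its Ngp 14.75.

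Camp, which encodes the antimicrobial peptide precursor, lay between 2.86 and 16.20 in side A with a median of 15.61. In side B it ran from 2.68 to 16.27 with a median of 8.98, which spans the whole range of side A. The means were 14.87 ± 3.23 (SD, n = 16) and 9.30 ± 5.29 (SD, n = 29), a difference of 5.57, or 6.37 without the Prg2-high cell. Ngp, a cystatin-like granule protein, ran from 3.11 to 17.09 with a median of 16.16 in side A and from 2.45 to 16.003 with a median of 4.96 in side B. Its means were 15.36 ± 3.31 (SD, n = 16) and 8.30 ± 5.20 (SD, n = 29), a difference of 7.06.

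**Figure D1:**
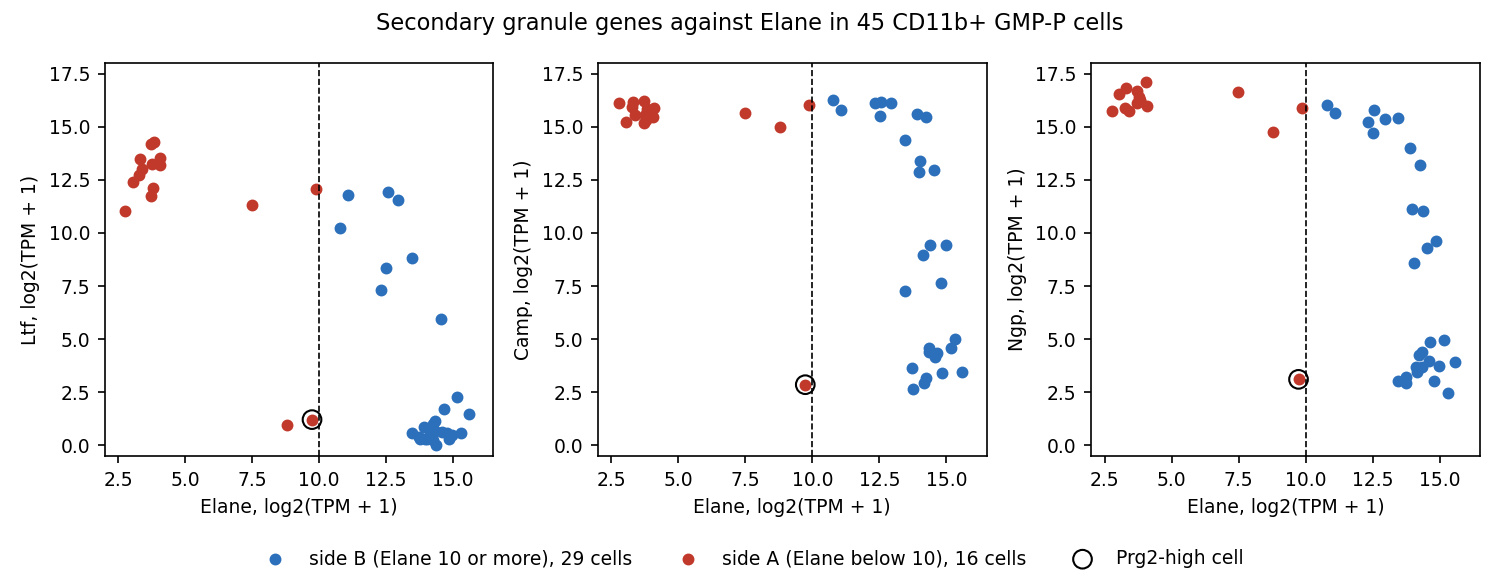
Levels of Ltf, Camp and Ngp against Elane, all as log2(TPM + 1), in 45 CD11b+ GMP-P cells. Each point is 1 cell, the dashed line is the Elane threshold of 10, red is side A, blue is side B and the ring marks the Prg2-high cell. Camp and Ngp are high on both sides of the line in cells with Elane up to 12.95, apart from the ringed cell, while B cells with more Elane are mixed.

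Side B was itself divided, so the Elane threshold did not separate late-granule cells from the rest. A value of 10 or more was reached by Ltf in 14 of 16 cells of side A and 4 of 29 of side B. For Camp the counts were 15 of 16 and 12 of 29, and for Ngp 15 of 16 and 11 of 29. No GMP cell of 46 reached 10 for any of these 3 genes. The 4 B cells with high Ltf had Elane between 10.79 and 12.95. Within side B, Elane and Camp had a Spearman correlation of -0.59 over 29 cells, Elane and Ngp -0.55, and Elane and Mpo 0.79. These describe cells of a single sorted population whose values share a fixed total TPM.

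Across all other genes, the comparison tilted toward lower values in side A. The filter, which either side can meet alone, kept 6876 genes detected in 10 or more of the 45 cells. Of these, 39 were higher in side A by at least 2 on the log2(TPM + 1) scale (0.567%) and 1411 were lower by at least 2 (20.5%). The median difference over these genes was -0.96. This scale understates the change of genes with many zeros. Without the Prg2-high cell, 6837 genes passed the filter, 49 were higher (0.717%) and 1463 lower (21.4%), with 38 higher and 1350 lower in both. The ranges of the sides overlapped for each of the 6876 genes (0 did not, 0%), also without that cell.

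Fewer genes were detected in side A. A cell of side A had 3178 ± 579 genes above 0 (SD, n = 16), between 2435 and 4419, against 4627 ± 688 (SD, n = 29), between 3228 and 6161, in side B. GMP cells had 5294 ± 801 (SD, n = 46). The ranges of the sides overlapped between 3228 and 4419 genes, called the overlap range, which held 8 cells of side A and 12 of side B. The side A mean was 68.7% of the side B mean for genes above 0, 56.3% for genes at 10 TPM or more and 58.9% for genes at 100 TPM or more. The lower number was therefore not confined to the faintest genes. Spearman correlations of Elane with genes detected were 0.83 over 45 cells, 0.56 in the 29 of side B and 0.49 in the 16 of side A.

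The 50 highest genes took up most of the total in each side A cell except the Prg2-high cell. The top 50 genes made up 64.8% ± 8.71 of a cell's TPM in side A (SD, n = 16) and 40.2% ± 11.95 in side B (SD, n = 29). Without the Prg2-high cell the side A share was 66.42% ± 6.17 (SD, n = 15). TPM sums to a fixed total, so a gene with unchanged copies has a lower TPM where others take more. After rescaling each cell without the 50 genes of highest mean, side A still had 60.8% of the side B mean of genes at 10 TPM or more and 68.1% at 100 TPM or more. TPM keeps no depth, so fewer reads, less RNA in the cell and fewer active genes cannot be told apart.

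**Figure D2:**
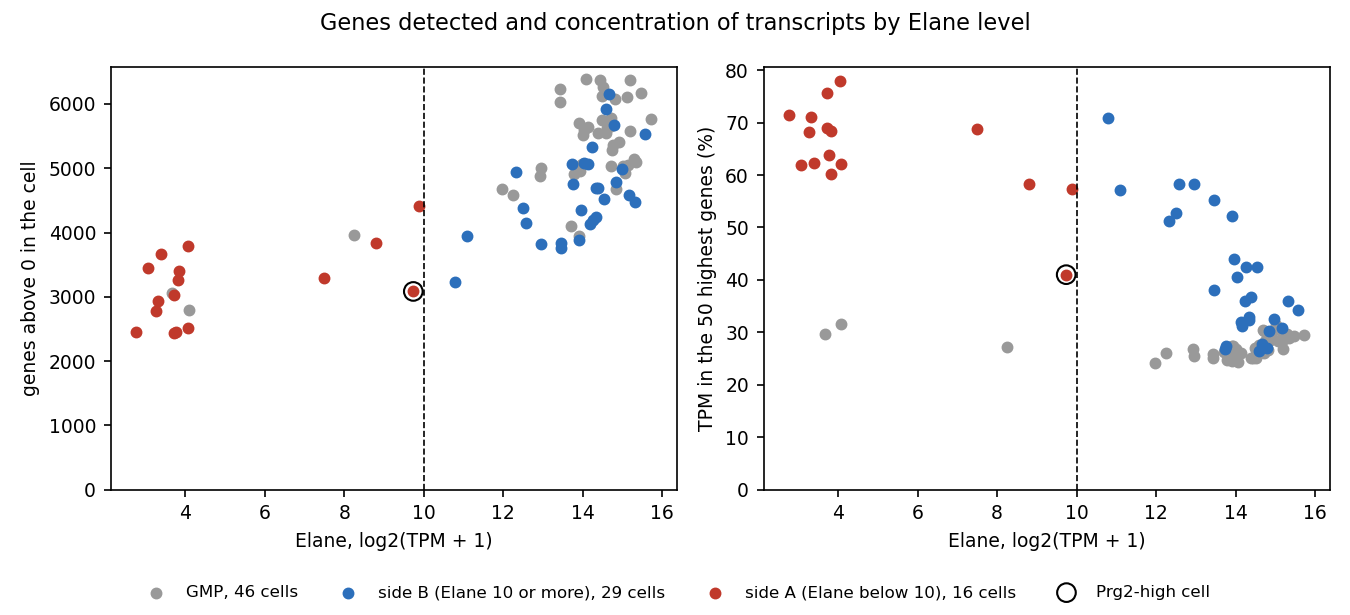
Genes above 0 (left) and percent of TPM in the 50 highest genes (right) against Elane as log2(TPM + 1), with 1 point per cell in side A (red), side B (blue) and GMP (grey). The number of genes is lower and the share of the 50 highest genes larger toward low Elane among CD11b+ GMP-P cells, and the B cells just above the threshold lie near those of side A in both.

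Detection differed most for genes of middling level. Of the genes with a mean between 4 and 6 in GMP cells, 51.7% of values were above 0 in side A and 75.8% in side B. For genes between 8 and 10 the shares were 84.8% and 97.3%, and for genes at 10 or more 96.5% and 99.8%. Of 206 genes with a mean of 8 or more over the 45 cells, 94 were lower in side A by at least 2 (45.6%). Cytoplasmic ribosomal protein genes made up 69 of the 206 and 55 of the 94. Between 4 and 6 the share lower was 56.3%, and under 2 it was 4.54%. A list of well expressed genes therefore needs to be read against these shares.

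**Figure D3:**
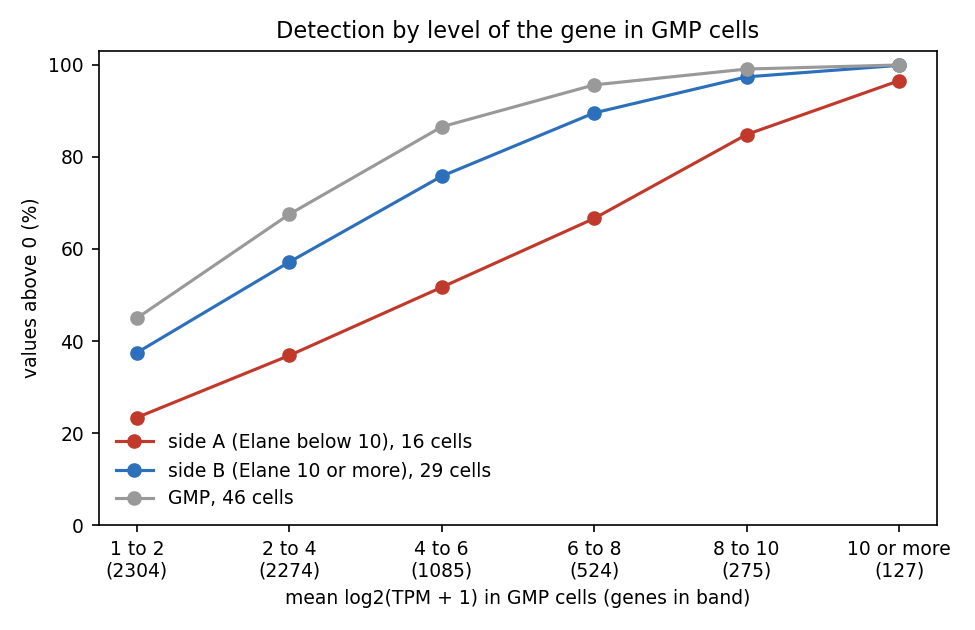
Percent of values above 0 in side A (red), side B (blue) and GMP cells (grey) for genes in bands of their mean log2(TPM + 1) in GMP cells, with the number of genes in each band under the axis. Side A lies below side B in each band, by most between means of 2 and 8, and the lines come together at 10 or more.

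To account for detection, a difference was said to hold when it was at least 2 in size and kept its direction at a size of at least 1 in 4 further settings. These kept the 2435 highest genes in every cell, set values under 10 TPM to 0, rescaled TPM without the 50 highest genes, or took the log2 ratio of mean TPM. Of the 39 higher genes 38 held (0.553% of genes tested), all but Pilrb1, and of the 1411 lower genes 1115 held (16.2%). In the order given, the 4 settings called 66, 45, 68 and 241 genes higher, more than the 39. Holding is thus a weak check for higher genes, and the overlap range was not part of it. With only the 8 and 12 cells of the overlap range, the median difference was -0.31, with 205 genes higher and 614 lower.

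Among secondary granule genes, 17 of 20 list members passed the filter of 10 cells, with a median of 2.12 that was 0.93 in the overlap range. By at least 2, 9 were higher (52.9%) and 2 lower (11.8%), against 0.567% and 20.5% of all tested genes. Of genes with means of 8 or more, where the list's median level of 8.98 lies, 45.6% were lower. Each of the 9 higher ones held, which is a weak check for higher genes. In TPM the list made up a median of 21.1% of a side A cell, 3.92% of a side B cell and 0.499% of a GMP cell. Cd177, a surface protein of neutrophils, was 9.54 ± 2.92 (SD, n = 16) in side A and 4.46 ± 4.23 (SD, n = 29) in side B. Chil1, a chitinase-like protein, lay between 0.00 and 10.85 with a median of 6.07 in side A and between 0.00 and 6.00 with a median of 0.00 in side B. It reached 10 TPM in 9 of 16 cells of side A, whereas Ltf did so in 14.

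The other higher members were Itgb2l, an integrin-like chain, Mmp8, the neutrophil collagenase, and the lysozymes Lyz1 and Lyz2, with differences of 4.17, 2.40, 2.39 and 2.12. Reads of Lyz1 and Lyz2 could have been shared between these near-identical genes. Tcn2, which binds cobalamin, and Slpi, a protease inhibitor, went the other way at -4.10 and -2.28, and Slpi stood at -1.83 without the Prg2-high cell. Lcn2, which binds siderophores, missed the size of 2 at 1.89 and reached it at 2.64 without the Prg2-high cell. Lcn2 was already at 10 or more in 20 of 29 cells of side B and 8 of 46 GMP cells.

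Of 30 gelatinase granule and late maturation genes 20 passed the filter, with a median of 1.26. Of the 20, 7 were higher (35%) and 1 lower (5%), against 0.567% and 20.5% of all tested genes. Of genes with means from 2 to 4, where the list's median level of 3.72 lies, 34% were lower. Ifitm6, a membrane protein of the interferon-induced family, was 8.78 ± 3.70 (SD, n = 16) against 3.63 ± 4.23 (SD, n = 29). The stefin genes BC100530 and Stfa1, cysteine protease inhibitors, differed by 3.92 and 3.08 and were each at 0 in at least 1 cell of side A. Mmp9, the gelatinase itself, reached 10 TPM in 4 of 16 cells of side A and 0 of 29 in side B, where a count of 0 allows a share of up to 10.3%. Ly6g and Retnlg, which mark more mature neutrophils, did not pass the filter, and reached 10 TPM in 2 and 4 cells of side A.

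Plbd1, a phospholipase-like granule protein, lay between 0.00 and 11.16 with a median of 3.60 in side A, and no cell of side B passed 2.25. Alox5, which starts leukotriene synthesis, differed by 3.41. Pirb, an inhibitory receptor, and Cd9, a tetraspanin, differed by 3.01 and 2.84. Among 26 of 29 chemotaxis and adhesion receptors that passed, 2 were higher (7.69%, against 0.567% of all tested genes). These were Fpr2 at 3.21 and C5ar1 at 2.83, which sense formyl peptides and complement C5a. Without the Prg2-high cell 5 were higher, with the integrin genes Itgam and Itgb2 and the receptor gene Cd300lf added. Lower by at least 2 were 5 (19.2%), among them Clec12a at -2.80 and Selplg at -2.39. That share lay close to the 20.5% of all tested genes. It lay below the 34% of those with means from 2 to 4, where the list's median level of 3.65 lies.

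The S100 genes S100a8 and S100a9, whose products form calprotectin, had mean levels of 150376 and 123678 TPM in side A and 67753 and 51309 TPM in side B. S100a9 had means of 16.24 ± 2.996 (SD, n = 16) and 13.87 ± 3.89 (SD, n = 29), a difference of 2.37. S100a8 differed by 1.72, or 2.44 without the Prg2-high cell. The S100 and annexin list, of which 14 of 15 passed, held a median of 31.2% of TPM in side A, 9.57% in side B and 0.592% in GMP cells. Of its 14 tested members 7 had a positive difference, among them Anxa1 at 1.46 and Anxa2 at 1.33. Lower by at least 2 were 5 (35.7%), such as S100a1 at -3.56 and S100a10 at -3.31, and 3 of these held with detection accounted for. Over all tested genes 20.5% were lower, and 56.3% of those with means from 4 to 6, where the list's median level of 5.73 lies. The list median of -0.21 turned to 0.26 when TPM was rescaled without the 50 highest genes and to 0.05 by the ratio of mean TPM.

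The NADPH oxidase subunits, which make superoxide in phagocytes, differed little. Of 7 subunits 0 were higher by at least 2 and 1 was lower (14.3%, against 20.5% of all tested genes), the GTPase Rac1 at -2.26. Of genes with means from 6 to 8, where the list's median level of 7.76 lies, 57.2% were lower. Cyba and Cybb, the membrane subunits, differed by 1.05 and 0.88, and the list median was 0.66.

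Primary granule genes were low in side A beyond Elane, the gene that defined the sides. The 12 list members all passed the filter, 9 were lower by at least 2 (75%), 0 higher, and the median was -4.03. Over all tested genes 20.5% were lower, and 57.2% of those with means from 6 to 8, where the list's median level of 6.34 lies. Mpo, myeloperoxidase, ran from 2.90 to 10.74 with a median of 3.24 in side A and from 8.23 to 14.23 with a median of 12.61 in side B. A single cell of side A, at 10.74, reached into the range of side B, and its Elane was 3.27. Means were 3.95 ± 2.04 (SD, n = 16) and 12.29 ± 1.60 (SD, n = 29), a difference of -8.34, and -7.93 in the overlap range.

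Prtn3, proteinase 3, was less cleanly divided, running from 0.63 to 9.69 with a median of 5.43 in side A and from 4.61 to 13.51 with a median of 11.95 in side B. It reached 10 TPM in 9 of 16 cells of side A, against 4 of 16 for Mpo and 2 of 16 for Ctsg, cathepsin G. Ctsg and Srgn, the granule proteoglycan serglycin, differed by -6.96 and -6.88. Cst7, an inhibitor of cysteine proteases, differed by -6.17. Ms4a3, a membrane protein of granulocyte-monocyte progenitors, stayed at a median of 8.43 in side A against 10.87. Serpinb1a and Cd63 differed by less than 2 in size, Cd63 by -0.69.

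**Figure D4:**
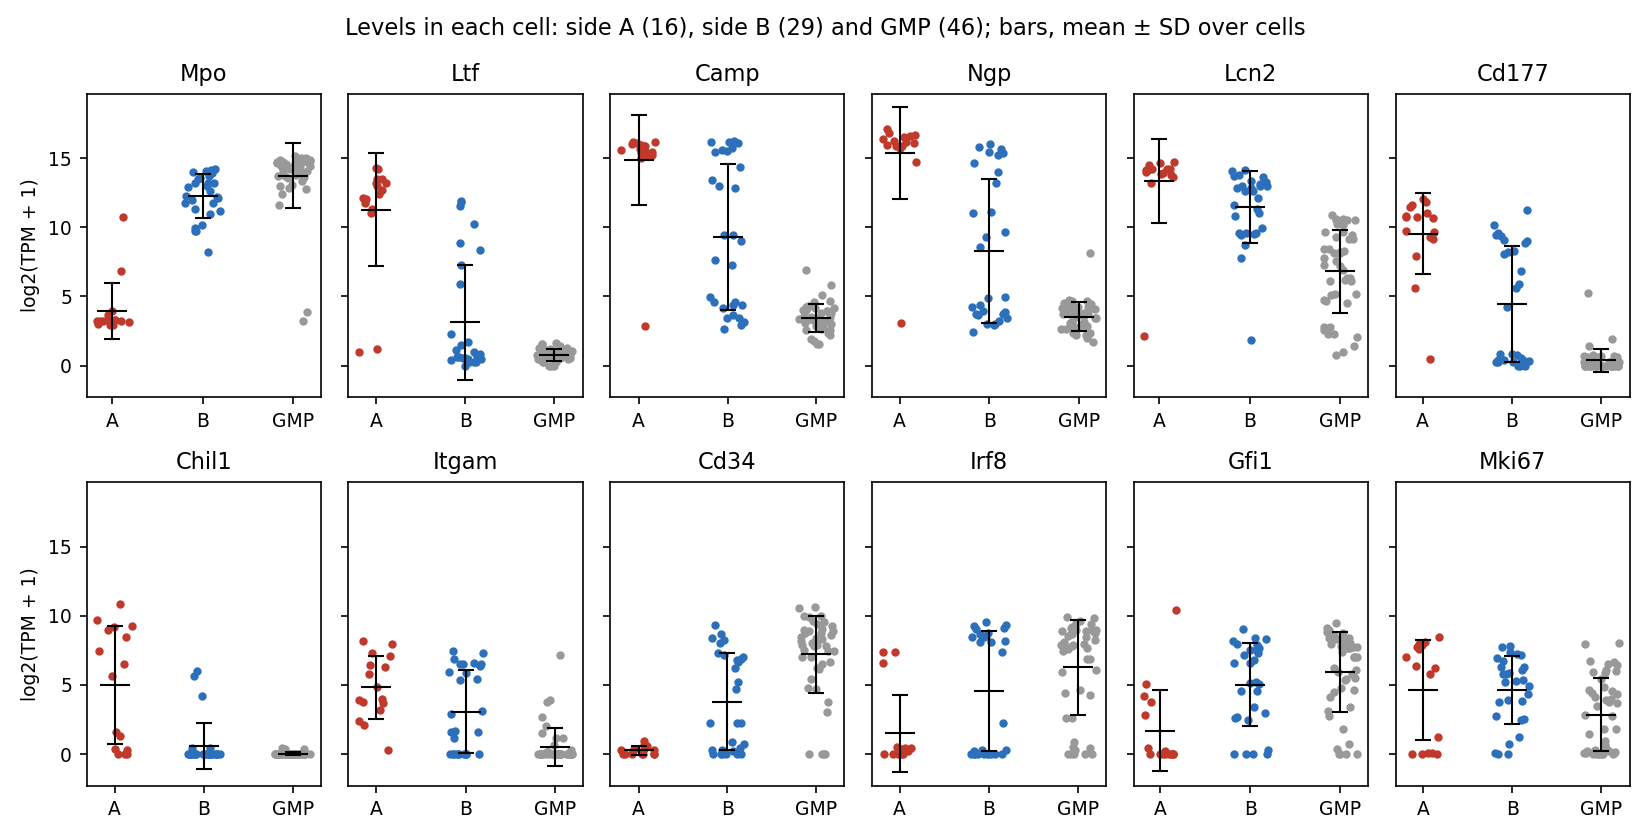
Levels of 12 genes as log2(TPM + 1) in each cell of side A (red), side B (blue) and GMP (grey), with bars for the mean ± SD over cells. Mpo is near 3.24 in most side A cells and Ltf, Camp and Ngp are high there, whereas Lcn2 and Mki67 overlap broadly between the sides and Cd34 is below 1 in each cell of side A.

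Other genes with the largest negative differences came from several groups. Nkg7, a granule membrane protein of cytotoxic cells, differed by -7.78, Gstm1, a glutathione transferase, by -7.09, and Lgals1, galectin-1, by -5.57. Reads of Gstm1 may be shared with its close relatives. Nkg7 had medians of 1.24 in side A and 11.02 in side B, and the sides overlapped because single cells lay at 11.07 and 0.93. Hmga1, a chromatin protein of proliferating cells, differed by -5.59, the translation regulator Pdcd4 by -5.69, the coactivator Edf1 by -5.91 and the splicing protein Snrpd2 by -5.71.

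Progenitor genes were low as well, with 9 of 21 passing the filter and a median of -2.80. Of the 9, 6 were lower (66.7%) and 0 higher. Over all tested genes 20.5% were lower, and 34% of those with means from 2 to 4, where the list's median level of 2.58 lies. The filter can be met by side B alone, so genes detected mainly there are among the 9. Cd34, by whose protein the cells were sorted, was at most 0.97 in side A and reached 10 TPM in 0 of 16 cells, which allows a share of up to 18.8%. It reached 10 TPM in 14 of 29 cells of side B and 41 of 46 GMP cells. Kit, which encodes the sorted CD117, reached 10 TPM in 0 of 16, 3 of 29 and 26 of 46 cells. Itgam, which encodes CD11b, had means of 4.83 ± 2.29 (SD, n = 16) in side A, 3.05 ± 2.99 (SD, n = 29) in side B and 0.54 ± 1.37 (SD, n = 46) in GMP cells. Its difference between the sides was 1.77, or 2.07 without the Prg2-high cell. Transcripts of these 2 sorted surface proteins, CD34 and CD117, thus stayed under 10 TPM in each cell of side A. Lmo2, Cd93 and Cd48 differed by -3.98, -3.73 and -3.49.

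Of 42 myeloid transcription factors 34 passed the filter, 3 were higher (8.82%, against 0.567% of all tested genes) and 6 lower, and the median was -0.70. The 17.6% that were lower lay near the 20.5% of all tested genes and below the 34% of genes with means from 2 to 4, where the list's median level of 2.24 lies. Gfi1 was 1.69 ± 2.94 (SD, n = 16) in side A and 5.03 ± 2.99 (SD, n = 29) in side B, and reached 10 TPM in 4 of 16 and 19 of 29 cells. The allele it came from is not known from these values, and its difference of -3.34 did not hold in all 4 settings. A single cell of side A had Gfi1 at 10.45, and the others were at 5.07 or less. That cell weighs heavily in the ratio of mean TPM. Gfi1 was above 0 in 7 of 16 cells of side A and 25 of 29 of side B. The part of detection in the Gfi1 difference was not tested. Irf8 reached 10 TPM in 3 of 16 cells of side A and 15 of 29 of side B, with a difference of -3.07 that held. Klf4, a monocyte factor, reached 10 TPM in 0 of 16 and 14 of 29 cells, and Myc and Myb, factors of proliferating progenitors, differed by -2.80 and -2.73.

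The 3 higher factors were Ets1 at 2.55, Id2, an inhibitor of E proteins, at 2.32 and Mxd1, an antagonist of Myc, at 2.26. Mxd1 reached 10 TPM in 8 of 16 cells of side A and 5 of 29 of side B. Cebpe, which encodes C/EBP epsilon, was 5.92 ± 2.22 (SD, n = 16) in side A, 4.84 ± 2.70 (SD, n = 29) in side B and 2.60 ± 2.86 (SD, n = 46) in GMP cells. Its difference of 1.08 was smaller than the SD of either side and became -1.14 in the overlap range. Spi1, which encodes PU.1, differed by 0.11.

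The C/EBP consensus was counted in the promoters of the called genes. Of the 39 higher genes 35 matched a RefSeq window, and 22 of these held the consensus (62.9%). The share was 36.9% of 1153 matched lower genes and 37.4% of 5567 matched tested genes. The shorter core TTNNGNAA, searched on both strands and overlapping the consensus, was held by 62.9%, 32.0% and 33.1%. These 35 genes were chosen by the same comparison and no test was made. Genes with several windows had more chances of a match, with a mean of 1.09 windows per higher gene and 1.26 per tested gene.

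Cell cycle genes did not move as 1 group. Of 20 S phase genes 14 were lower by at least 2 and 0 higher, with a median of -2.54, and 9 of the 14 held. The 14 were 70% of the list, against 20.5% of all tested genes. The list's median level over the 45 cells was 3.96, at the edge of 2 bands. In the band from 2 to 4, 34% of all genes were lower, and from 4 to 6 it was 56.3%. Tipin, a replication fork protein, differed by -5.77 and the helicase subunit Mcm3 by -4.96. Cdc6, which loads that helicase, was at 0 in each of 16 cells of side A and above 0 in 17 of 29 of side B.

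Of 22 G2 and M phase genes 1 was lower by at least 2 (4.55%, against 20.5% of all tested genes). This was Ccnb1, cyclin B1, at -3.19. Of genes with means from 2 to 4, where the list's median level of 3.36 lies, 34% were lower. The list median of -1.01 was close to that of all genes and turned to 1.17 in the overlap range. Mki67, a protein of dividing cells, reached 10 TPM in 10 of 16 cells of side A, and 6 cells were at 1.23 or less. Its means were 4.65 ± 3.62 (SD, n = 16) and 4.61 ± 2.46 (SD, n = 29). Top2a, which untangles chromosomes, was 4.90 ± 3.94 (SD, n = 16) and 5.34 ± 3.13 (SD, n = 29). The cell cycle inhibitor gene Cdkn2d was higher by 2.15.

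Most genes of protein synthesis were lower in side A. Of 79 cytoplasmic ribosomal protein genes 65 were lower by at least 2 and 0 higher, with a median of -2.79 that was -1.58 in the overlap range and -1.37 by the ratio of mean TPM. Of the 69 with a mean of 8 or more, 55 were lower. At that level 94 of all 206 genes were lower (45.6%), but these counts include the 69 and the 55. Over all tested genes 20.5% were lower. They held a median of 3.79% of TPM in side A, 13.1% in side B and 18.1% in GMP cells, and 27.5% in the Prg2-high cell. Rpl3 ran from 1.19 to 12.26 with a median of 6.57 in side A and from 7.25 to 12.16 with a median of 11.17 in side B. The highest side A value belonged to the Prg2-high cell, and the next was 11.26, so the sides overlapped also without it.

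Of 29 translation factors 22 were lower, including Eef1g at -5.99 and Eif3e at -5.59, and the median was -2.65, or -1.48 in the overlap range and -1.35 by the ratio of mean TPM. Of 27 ribosome biogenesis genes 14 were lower, including the nucleolar protein Nop56 at -5.03, with a median of -2.11 that was -0.50 in the overlap range. Respiratory chain and ATP synthase genes gave 42 of 58 lower and a median of -2.83, with Atp5a1 at -5.07. That median was -1.59 in the overlap range and -1.23 by the ratio of mean TPM. Endoplasmic reticulum folding and secretion genes gave 27 of 34 lower and a median of -2.93, with the translocon-associated Rpn2 at -5.08 and the chaperone Calr at -4.63. Their median was -1.13 in the overlap range and -1.20 by the ratio of mean TPM. None of these 4 lists had a member higher by 2. Genes of these lists with means between 4 and 8 belong to bands in which 56.3% and 57.2% of all genes were lower. The ribosome biogenesis list had a median level of 2.14, in the band from 2 to 4 in which 34% were lower. Over all tested genes the share was 20.5%.

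The actin and motility list differed from these. Of its 33 members 0 were higher or lower by at least 2, although its median level was 7.05, and its median difference was -0.64, nearer 0 than that of all genes. Actb, beta-actin, was 14.87 ± 0.47 (SD, n = 16) in side A and 14.30 ± 0.53 (SD, n = 29) in side B. Without the Prg2-high cell 2 members were lower by at least 2. Of 22 glycolysis and pentose phosphate genes 9 were lower (40.9%) and the median was -1.16. Over all tested genes 20.5% were lower, and 56.3% of those with means from 4 to 6, where that list's median level of 5.93 lies. In the overlap range, medians of other lists were also nearer 0, at -2.77 for primary granule, -1.16 for progenitor, -1.75 for S phase, -1.15 for monocyte, -0.62 for glycolysis, -0.12 for transcription factor, -0.09 for actin, 0.13 for NADPH oxidase and 1.10 for gelatinase granule genes.

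**Figure D5:**
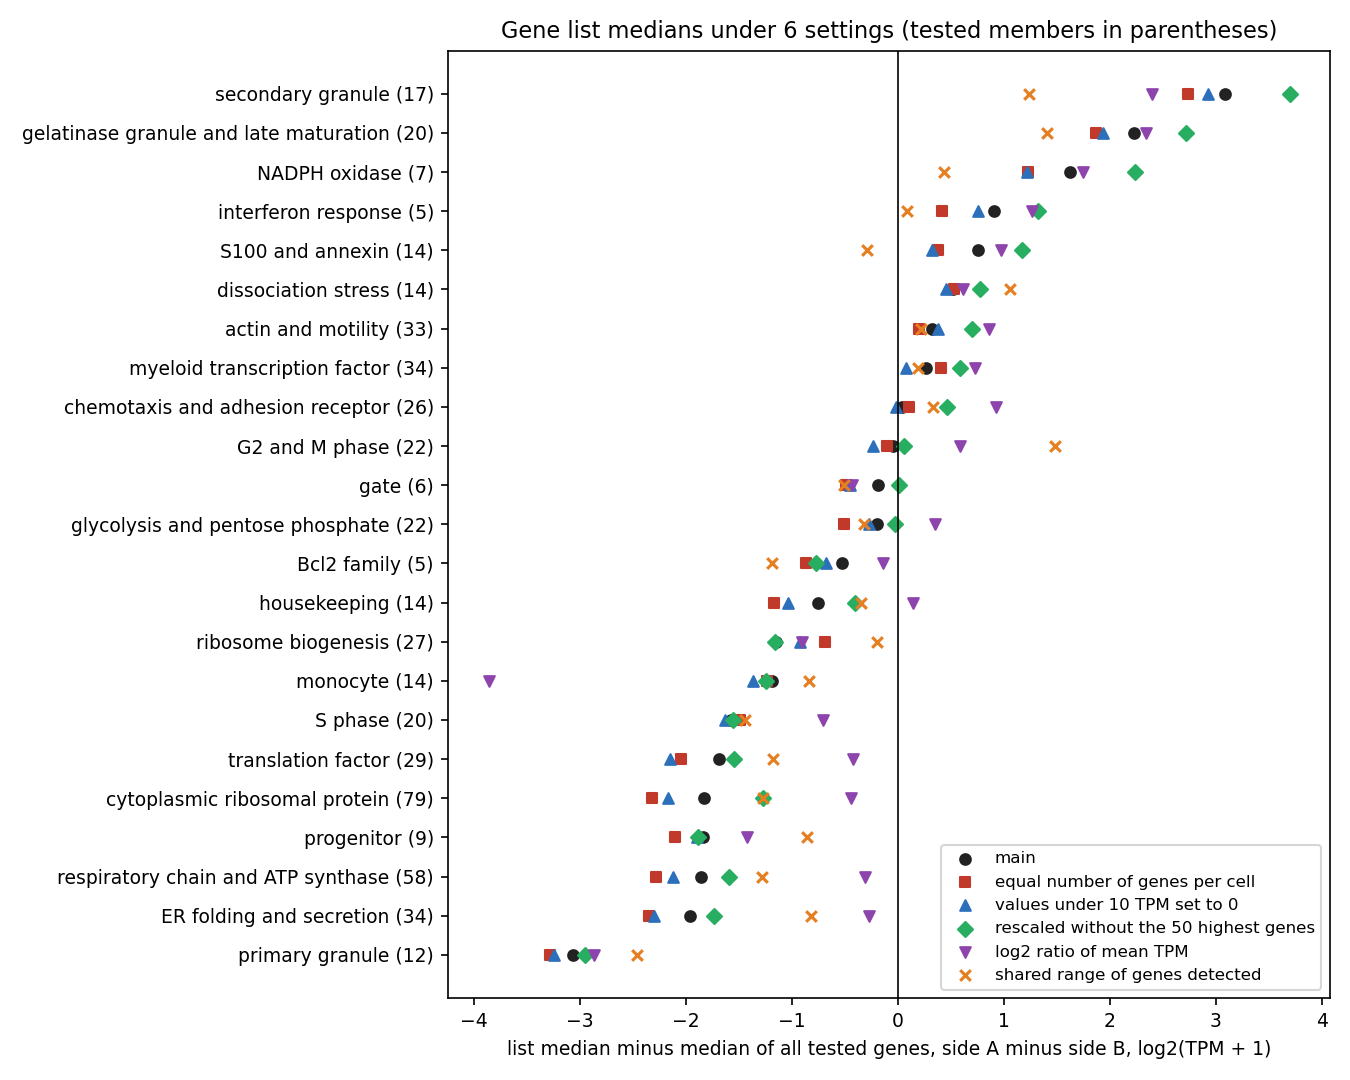
Median difference of each gene list minus the median of all tested genes, side A minus side B on the log2(TPM + 1) scale, in the main setting and 5 others, with the number of tested members in parentheses. Secondary granule and gelatinase lists lie to the right and primary granule, progenitor and protein synthesis lists to the left in each setting, while the G2 and M phase list moves from near 0 to the right in the overlap range, plotted as crosses.

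Markers of other cell types were counted in both sides. Monocyte genes had lower means in side A, with 14 of 22 passing the filter, 8 lower and 0 higher, and a median of -2.16. The filter can be met by side B alone, so the tested members include genes detected mainly there. Klf4 was above 0 in 4 of 16 cells of side A and 17 of 29 of side B. The counts therefore describe the tested members and do not support a drop of the whole list. The lower members were 57.1% of those tested, against 20.5% of all tested genes. The list's median level was 1.80, and its members fall on both sides of that level. Of genes with means under 2, which have little room to be lower by 2, 4.54% were lower. From 2 to 4 the share was 34%, and from 4 to 6 it was 56.3%. Csf1r, the receptor of macrophage colony-stimulating factor, reached 10 TPM in 0 of 16 cells of side A, 7 of 29 of side B and 14 of 46 GMP cells. The 6 monocyte markers summed to between 0 and 0.0167% of TPM in side A and between 1.2e-05% and 0.187% in side B, and their part in the differences was not tested. Erythroid, B and T cell markers were at 0 in each CD11b+ GMP-P cell. Of 6 macrophage markers 5 were at 0 throughout side A and 4 throughout side B. At least 1 of the 6 reached 10 TPM in 2 of 16 cells of side A and 8 of 29 of side B. Prss34 and Fcer1a of the 5 basophil and mast cell markers were at 0 in both sides. At least 1 of these 5 reached 10 TPM in 1 of 16 cells of side A and 4 of 29 of side B. Eosinophil markers summed to at most 13.3% in side A, in the Prg2-high cell, and 0.0724% in side B.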

How the data were processed

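The authors deposited a table of 23956 genes in 91 single cells as log2 values. With the log undone and 1 subtracted, a cell's values added up to between 999999 and 1000080, as those of log2(TPM + 1) do. RSEM, without a version, and build mm9 are named, per the submitters' processing notes. The aligner is not given in the sources used here, nor is the annotation. Reads were pairs of 150 bp, and SMARTer and Nextera XT libraries mark neither molecules nor strand, so overlapping and antisense genes cannot be separated. TPM keeps no depth, and 86.7% of values were 0 in side A and 80.7% in side B. The highest correlation between 2 cells was 0.736. No doublet caller was run.

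The difference was the mean log2(TPM + 1) of side A minus that of side B, for genes above 0 in at least 10 of 45 cells without Elane, with a size of 2 for a call. No test was made. Limits of a count of 0 use 3 counts and cover counting error only. The members and the 30 gene lists were chosen with earlier results of these data known.

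Genes named were Elane, Gfi1, Irf8, Ltf, Camp and Ngp, the 15 genes with the highest and the 15 with the lowest difference, if detected in 50% or more of a side's cells, and up to 5 members of each list by size. For lists of other cell types the rule added the member with the highest mean TPM in side A. All others named were chosen after their values were seen, such as Lcn2, S100a8, S100a9, Mki67, Cebpe, Cdc6 and Mmp9. Promoters were matched to genes by symbol or synonym, for 81.0% of tested genes. The C/EBP core was searched first and the consensus added afterwards. Alternatives were other pseudocounts, filters, thresholds and scalings, the restrictions on detection, and each side A cell left out in turn. The calculation was tested on simulated data. Python 3.11.15, numpy 2.4.6, pandas 2.3.3 and scipy 1.17.1 were used.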

Additional observations from a re-analysis of the deposited data

How the results depend on the processing

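The 39 higher genes became 71 with a pseudocount of 0.1 and 16 with 10, 241 by the log2 ratio of mean TPM, 66 with an equal number of genes per cell, 68 when TPM was rescaled, 205 in the overlap range of genes detected and 200 over cells above 0 only. The 1411 lower genes became 2793 and 373 with pseudocounts of 0.1 and 10 and 614 in the overlap range. The median of -0.96 became -1.62 and -0.42 with those pseudocounts, -0.43 without a filter, -1.44 with a filter of 23 cells, -0.48 with equal genes, -0.31 in the overlap range and -0.73 over cells above 0 only. The difference of -1450 genes detected became -536 at 100 TPM or more and -509 there after rescaling, which count fewer genes by construction. The cause of the other shifts was not tested. Leaving out each side A cell in turn gave 35 to 49 higher genes, 1327 to 1514 lower genes, medians from -1.01 to -0.92, genes detected from -1532 to -1400 and a share in the 50 highest genes from 23.8 to 26.3 percentage points. Among genes named by the rule, signs turned for Hdc (0.19) and Nhp2 (0.062) in the overlap range, Pgk1 (0.10) by the ratio of mean TPM and S100a13 (0.52) over cells above 0 only, and the cause was not tested. Outside the rule, Cebpe turned to -1.14 in the overlap range. In the overlap range the medians of the G2 and M phase, dissociation stress, and chemotaxis and adhesion lists turned to 1.17, 0.75 and 0.02. That of dissociation stress was 0.06 with equal genes. The small medians of the S100 and annexin and interferon lists turned to 0.26 and 0.40 after rescaling. By the ratio of mean TPM they turned to 0.05 and 0.34. The S100 and annexin median was also 0.16 with a filter of 23 cells, and the interferon median 0.07 over cells above 0 only. Medians of lists with 2 or 3 tested members turned as well, such as macrophage at 0.32 and dendritic cell at 0.18 in the overlap range. Of the other values of 135 named genes 1961 moved by less than the SD over cells and 36 by more, and of those of 29 list medians 405 and 27. Leaving out the Prg2-high cell and rescaling the counts of genes were chosen after seeing the data. No paired analysis was possible because no test was made and the populations share no cell number. With 16 cells in side A and no depth in TPM, a gene at 0 may have been missed.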

Other observations

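Low Elane was not particular to late-granule cells. Among 46 GMP cells 3 had an Elane value below 10, at 3.66, 4.08 and 8.24. Ltf was below 1 in these 3 cells, at 0.62, 0.70 and 0.30. Gata2, a transcription factor of the mast cell and basophil branch, was at 8.73, 11.50 and 10.10 in them, and Cpa3, mast cell carboxypeptidase, at 5.23, 14.21 and 12.33. Mcpt8, a basophil protease, was at 0 in the first and at 10.83 and 10.87 in the others. The cells had 3067, 2796 and 3961 genes above 0, a range that overlaps that of side A.

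Besides the Prg2-high cell, Ear2, an eosinophil ribonuclease, reached 10 TPM in 5 of 16 cells of side A, 3 of 29 of side B and 0 of 46 GMP cells, where a count of 0 allows a share of up to 6.52%. Hist1h1e, a linker histone, was 6.21 ± 3.62 (SD, n = 16) in side A and 3.76 ± 3.43 (SD, n = 29) in side B. Of 20 S phase genes 14 were lower (70%, against 20.5% of all tested genes). Inhba, an activin subunit, reached 10 TPM in 8 of 16 cells of side A and 0 of 29 of side B.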
